A study of Bos taurus with 18 samples.

Results

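The comparison described here is that of Low ×5 with Low ×2.5, the 2 supplemented treatments of bovine fibroblasts kept in low glucose, and it asks whether DNA methylation went on changing once the supplement was raised from 2.5 to 5 times the Control level. It rests on 6 of the 18 libraries of the series, 3 per treatment, and on all 31500 CpGs of the data. The cells were EBTr, a bovine line of tracheal fibroblasts of embryonic origin. Every treatment was grown in the same basal medium with serum and pyruvate, and Low media held 1 g/L glucose, while High media held 4.5 g/L. The supplement, called epigenetic modifiers (EM), was made of folate, choline, vitamin B12 and methionine, and Control media held the basal amounts. According to the sample labels all 4 compounds were raised to 2.5 or 5 times Control, whereas the methods of the study set methionine at 2 times Control in both supplemented media. By the second account folate, choline and vitamin B12 alone differed between Low ×2.5 and Low ×5. The study used a single cell line, and each library came from a frozen tube of cells, of which nothing says that they were separate cultures, so the p-values below measure the spread between tubes, which may be technical.

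These compounds feed 1-carbon metabolism. Folate and vitamin B12 carry and transfer methyl groups for the remaking of methionine, choline supplies methyl groups after its oxidation to betaine, and methionine is turned into S-adenosylmethionine, the methyl donor of the DNA methyltransferases. These enzymes place methyl groups on the cytosine of CpG dinucleotides. In reduced representation bisulfite sequencing (RRBS), CpG-rich fragments are sequenced after bisulfite has converted the unmethylated cytosines, so that the share of methylated reads can be read at each CpG.

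The data hold 1 M-value for every CpG in every library, the methylated reads over the unmethylated reads on a log2 scale. A methylation level in percent was computed from it, and differences of levels are given in percentage points. The reads behind each value are unknown. Each cytosine position counts as a CpG here, so both strands of a site count separately, and averaging the strands leaves 25294 sites. The threshold of the study, an unadjusted p-value under 0.01, was applied to a limma fit of all 18 libraries, and a CpG that passed it (a called CpG) is termed methylated where Low ×5 was higher and demethylated where Low ×5 was lower. The study itself tested single cytosines with edgeR, so the limma calls do not repeat its test. Adjusted p-values are Benjamini-Hochberg values over all CpGs, clusters or genes tested. Positions are those of bosTau8, and gene names are those that the tables of the study give for the closest start site, which need not mean that a CpG lies in the gene.

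Between EM at ×2.5 and at ×5, the mean methylation level of Low cells differed by less than the spread of the libraries. The 3 Low ×2.5 libraries had mean levels of 69.1, 69.3 and 69.8% and the 3 Low ×5 libraries of 69.1, 69.3 and 70.02%, so that the ranges overlapped. The means were 69.4% ± 0.345 (SD, n = 3) and 69.5% ± 0.487 (SD, n = 3). The difference of 0.0924 points had a two-sided exact permutation p-value of 0.7, where 3 libraries against 3 cannot go below 0.1. Over the 9 pairs of a Low ×5 and a Low ×2.5 library the difference ran from -0.692 to 0.909 points and was above 0 in 5.

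The step below it, from Control to ×2.5, was larger in size but also not beyond the spread of its libraries. Low Control libraries had levels of 67.2, 67.8 and 69.6%, a mean of 68.2% ± 1.25 (SD, n = 3). Low ×2.5 was 1.18 points higher, with an exact permutation p-value of 0.3, and was higher in 7 of 9 pairs. Per 1 time Control of supplement, the level moved by 0.789 points between Control and ×2.5 and by 0.0370 points between ×2.5 and ×5. In High cells the same dose step was -0.535 points (exact permutation p = 0.4). The Low step minus the High step was 0.627 points, with an exact permutation p-value of 0.365 over 400 arrangements of the libraries.

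The CpGs were then split into 5 classes by their mean level over all libraries, because a change at sparsely and at densely methylated sites could cancel out in the mean. In none of the classes did the doses differ beyond the spread of the libraries, and the adjusted p-values over the 5 classes were 0.875 to 1 (exact permutation tests with Benjamini-Hochberg adjustment). The 377 CpGs under 10% had a mean level of 5.11% in Low ×2.5 and 4.65% in Low ×5, and the 1736 CpGs at 10 to 30% had levels of 21.1% and 20.7%. The 10841 CpGs at 30 to 70% stood at 53.8% in both treatments. The 15178 CpGs at 70 to 90% had levels of 82.3% and 82.6%, and the 3368 CpGs over 90% had levels of 93.1% and 93.4%. The differences thus lay between -0.459 and 0.275 points, against -2.53 to 2.03 points for the same classes between Low Control and Low ×2.5.

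Low Control replicates 2 and 3 had M-values less spread over CpGs, with an SD of 1.63 and 1.58, than the 6 supplemented Low libraries, with SDs of 1.72 to 1.83. Values pulled towards 0 give higher levels at sparsely methylated and lower levels at densely methylated CpGs, and the part of this in the step from Control to ×2.5 was not tested. The step from ×2.5 to ×5 does not involve these libraries.

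**Figure D1:**
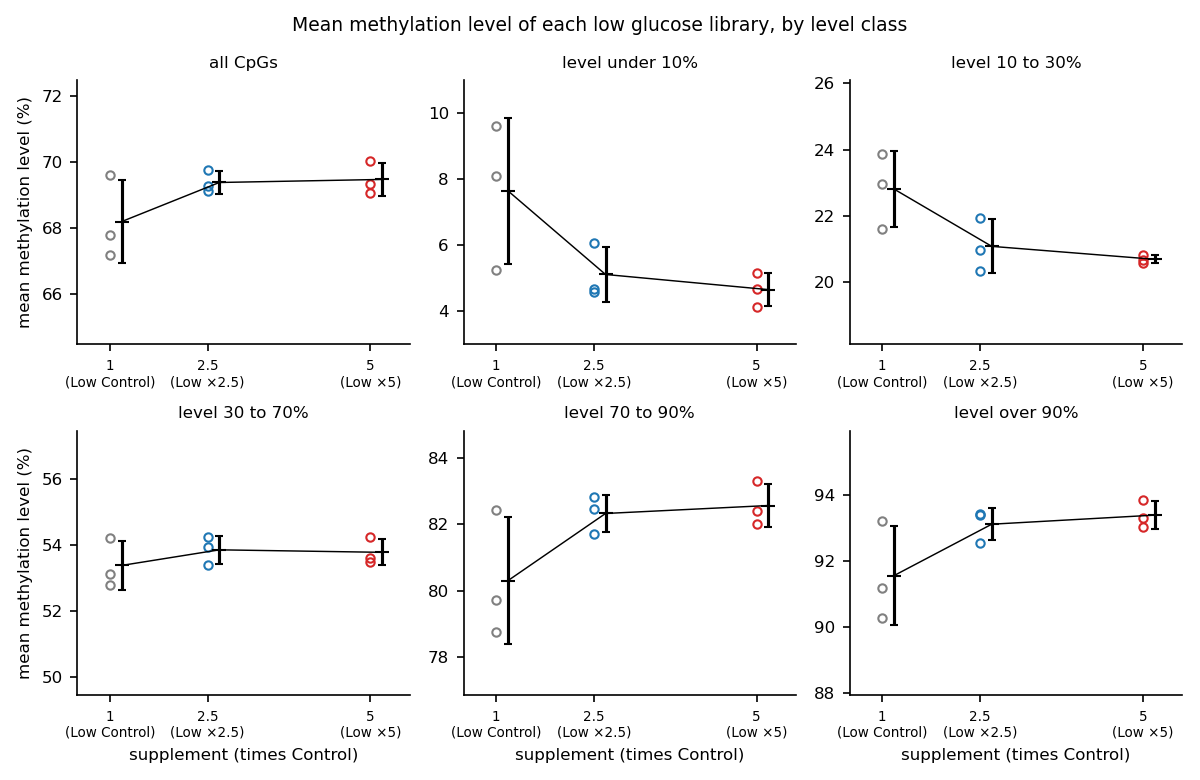
Mean methylation level (%) of each low glucose library (open circles) against the supplement in times Control, over all CpGs and in the 5 level classes, with the mean and SD of the 3 libraries beside them and a line through the means. Low ×2.5 and Low ×5 overlap in every panel, and the line is flatter between 2.5 and 5 than between 1 and 2.5 in every panel.

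Libraries of different doses were no farther apart than libraries of 1 dose. The mean absolute difference of M-values over CpGs was 0.420 on the log2 scale for the 9 pairs between Low ×2.5 and Low ×5, with a range of 0.370 to 0.480, and 0.422 for the 6 pairs within a treatment, with a range of 0.379 to 0.466. Their difference of -0.0015 had an exact permutation p-value of 0.7. In percentage points the means were 4.46 between and 4.47 within treatments. Low ×2.5 replicate 1 was the library farthest from the others, at 0.457 to 0.480 from the 3 Low ×5 libraries and at 0.460 and 0.466 from the 2 other Low ×2.5 libraries. The closest pairs of all were between the doses, Low ×5 replicate 1 with Low ×2.5 replicates 3 and 2, at 0.370 and 0.372, followed by Low ×5 replicates 1 and 2, at 0.379.

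**Figure D2:**
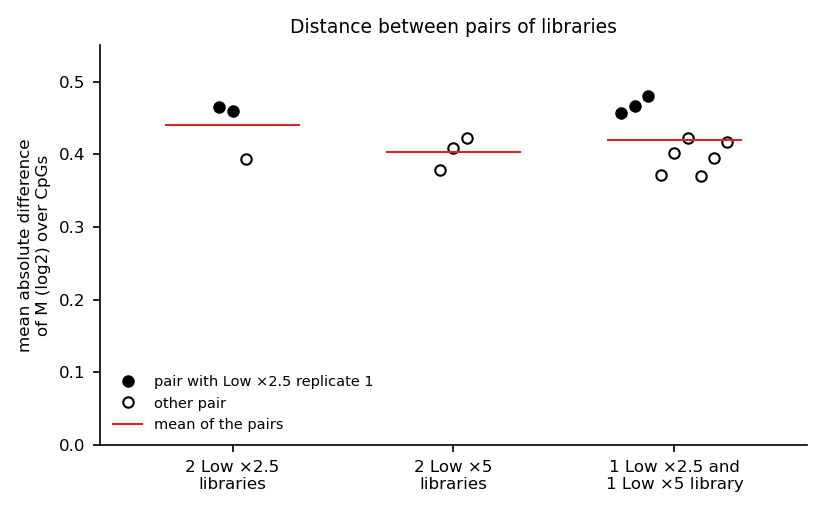
Mean absolute difference of M (log2) over all CpGs for each pair of libraries, grouped by whether both come from Low ×2.5, both from Low ×5 or 1 from each, with the mean of each kind of pair as a line. Pairs between the doses run from 0.370 to 0.480 and pairs within a dose from 0.379 to 0.466, and the highest pairs of 2 of the kinds hold Low ×2.5 replicate 1.

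Single CpGs were called less often than the threshold alone would give. Of 31500 CpGs, 117 were called between Low ×5 and Low ×2.5, which is 0.371%, where 1% (315 CpGs) is nominal if no CpG differs. Of these, 72 were methylated (0.229% of the CpGs tested) and 45 demethylated (0.143%). No CpG had an adjusted p-value under 0.05 by limma with Benjamini-Hochberg adjustment, the smallest being 0.622, and at an unadjusted threshold of 0.05 there were 754 CpGs against a nominal 1575. The median difference over CpGs was 0.0049 and its SD over CpGs 0.32 on the log2 scale. A difference of 10 points or more was seen at 488 CpGs, 52 of which were called.

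The number of calls depended on which libraries set the spread. With only the 6 libraries of Low ×5 and Low ×2.5 in the fit, 275 CpGs were called and 1588 passed an unadjusted threshold of 0.05, both near nominal, and no CpG had an adjusted p-value under 0.05 by limma either. The pooled SD of replicates was 0.416 in Low ×2.5 and 0.381 in Low ×5 on the log2 scale, below the 0.425 to 0.552 of the 4 other treatments. Leaving out Low ×2.5 replicate 1, the library that stood apart, gave 84 calls and turned the balance to 35 methylated and 49 demethylated CpGs. The balance depended on the scaling too. With libraries centred on their median M-value, 70 CpGs were methylated and 61 demethylated, and with quantile normalization 60 and 53.

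For the step from Low Control to Low ×2.5, which shares the Low ×2.5 libraries, 629 CpGs were called (2%), 481 of them methylated, and 1586 CpGs differed by 10 points or more. With only its own 6 libraries in the fit this number was 419, of which 343 were methylated, and without Low Control replicate 1 it was 1415, of which 4 had an adjusted p-value under 0.05 (limma), the smallest being 0.00898. With libraries centred on their median M-value, 255 of 572 calls were methylated in this step, so its balance depended on the scaling. Low ×5 against Low Control gave 757 calls (2.4%), and High ×5 against High ×2.5 gave 463 calls (1.47%), 143 of them methylated. With all 18 libraries in the fit, no CpG had an adjusted p-value under 0.05 by limma in any of these comparisons, and at an unadjusted threshold of 0.05 there were 2559, 2700 and 2004 CpGs. The last 2 were not fitted with only their own 6 libraries. Pooled replicate SDs were 0.552 in Low Control, 0.487 in High ×2.5 and 0.493 in High ×5 on the log2 scale, so these counts are not on a par with those of Low ×5 against Low ×2.5. In points the median replicate SD was 4.59 in Low Control, 3.06 in Low ×2.5 and 2.77 in Low ×5.

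**Figure D3:**
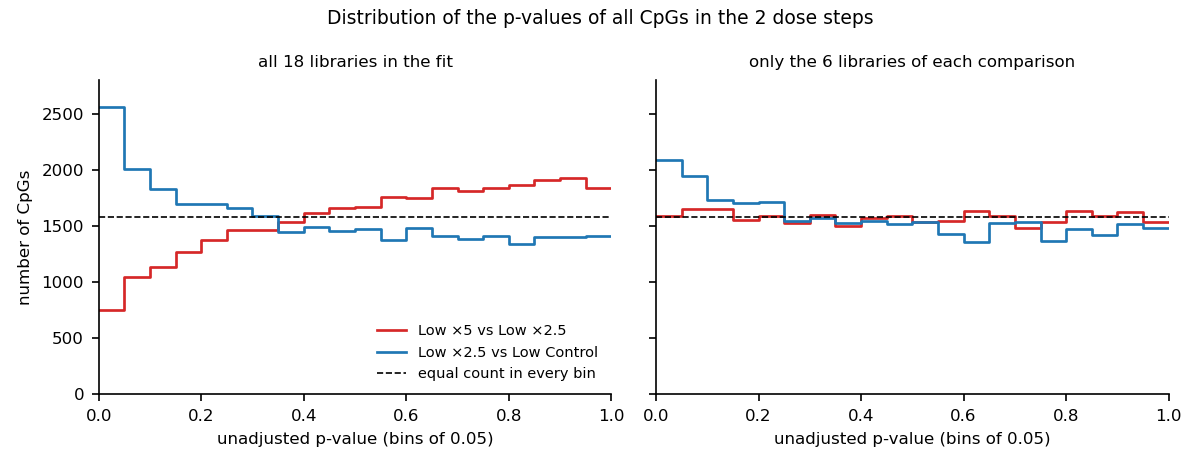
Number of CpGs in each bin of the unadjusted limma p-value for Low ×5 against Low ×2.5 and for Low ×2.5 against Low Control, with all 18 libraries in the fit (left) or only the 6 libraries of each comparison (right), and a dashed line at an equal count in every bin. Low ×5 against Low ×2.5 holds 754 CpGs in the lowest bin on the left and lies along the dashed line on the right with 1588, while Low ×2.5 against Low Control holds 2559 and 2091.

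A direct test of a change of slope compared the step per 1 time Control above ×2.5 with the step below it. It called 295 CpGs (0.937%), 61 with a steeper rise or shallower fall above ×2.5 and 234 with the opposite. The median change of slope was -0.06 on the log2 scale. No CpG had an adjusted p-value under 0.05 by limma, the smallest being 0.741, and 1587 CpGs passed an unadjusted threshold of 0.05, near the nominal 1575. Centring the libraries gave 129 and 162 CpGs in these directions and quantile normalization gave 110 and 154, so the balance depended on the scaling. Without Low Control replicate 1 the number of calls was 674.

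The dose step of Low cells was also compared with that of High cells, the nearest comparison with no library in common. It called 262 CpGs (0.832%), 188 with a higher difference in Low cells and 74 with a higher difference in High cells. No CpG had an adjusted p-value under 0.05 by limma, the smallest being 0.475, and 1393 CpGs passed an unadjusted threshold of 0.05. Centred libraries gave 153 and 113 calls in these directions and quantile normalization 153 and 118.

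The data set a limit on changes that could have passed unseen at single CpGs. The 95% interval of the difference between Low ×5 and Low ×2.5 had a median half-width of 0.71 on the log2 scale and of 7.69 points. It comes from the fit of all 18 libraries, in which the other treatments had more replicate spread. Intervals from the 6 libraries alone were not computed. For 15757 CpGs, 50.02% of those tested, the interval lay within 10 points of 0 on both sides, and for 9.59% within 5 points. For the other CpGs a difference of 10 points or more was within the interval.

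The called CpGs were scattered. They lay in 111 clusters or single sites, 106 of which held 1 called CpG and 5 held 2 or more, with at most 3, and in 91 regions on 25 chromosomes. Of the 117, 110 were assigned to 74 genes, while 25162 of all 31500 CpGs (79.9%) were assigned. Genes were assigned through the study's lists of CpGs that passed its threshold in these same libraries. The share assigned among called CpGs is therefore not independent of the calls. Many CpGs were measured on both strands, where the cytosines lie 1 bp apart, and each strand gives reads of its own. Of the called CpGs, 36 had the other strand tested, and on that strand 0 were called, 1 had an unadjusted p-value under 0.05 by limma and 18 had the same sign. Over all 31500 CpGs, 0.371% were called and 754 had an unadjusted p-value under 0.05 (limma), so counts this low on 36 strands are near the general share.

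Over all 6206 CpGs with both strands tested, levels were alike on the strands and dose differences were not. Pearson's r between the strands was 0.942 for the mean level in Low ×2.5 and 0.945 in Low ×5. For the difference between Low ×5 and Low ×2.5 it was 0.011, and the signs were the same at 50.6% of the CpGs. For comparison, r was 0.0048 for the difference between 2 replicates of 1 treatment (Low ×2.5 replicates 1 and 2), 0.10 for Low ×2.5 minus Low Control, 0.13 for Low ×5 minus Low Control, 0.015 for High ×5 minus High ×2.5 and 0.095 for High ×5 minus Low ×5. The differences from Low Control include its replicates 2 and 3, whose M-values were less spread. The part of this in their r was not tested. Between neighbouring CpGs 2 to 10 bp apart, which can share reads, r for the Low ×5 minus Low ×2.5 difference was 0.26 over 8647 pairs, against 0.22 for the 2 replicates. These correlations are across CpGs of the same libraries, and CpGs are not independent replicates.

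The methylated CpG with the smallest p-value was assigned to SFRP1, a secreted antagonist of Wnt signalling, at chr27:35834463. Its level was 86.5, 83.6 and 83.7% in the Low ×2.5 libraries and 94.1, 92.3 and 92.2% in the Low ×5 libraries. All Low ×5 libraries were thus above all Low ×2.5 libraries, while Low Control stood at 85.5%. The difference was 1.25 ± 0.21 (SE) on the log2 scale, with an adjusted p-value of 0.622 (limma). The CpG also had the smallest p-value in the comparison of the Low with the High dose step, with an adjusted p-value of 0.475 (limma). Its level was 83.1% in High ×2.5 and 76.9% in High ×5. That comparison includes the same Low step by which the CpG was chosen, so it is not a separate result. The 3 other CpGs within 50 bp had a mean level of 61.1% in Low ×2.5 and 56.0% in Low ×5, with 1 of the 3 higher in Low ×5. Over all 130 CpGs assigned to SFRP1 the level was 72.8% and 73.7%.

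Larger differences in points than at SFRP1 lay at 4 of the methylated CpGs named here, 14.8 points at TSPY (chr8:83249199), 13.6 points at PUDP (chrX:146839532) and those at CpGs assigned to PAK1, a kinase activated by the GTPases Rac and Cdc42, and HDAC8, an X-linked histone deacetylase. The PAK1 CpG at chr29:19415198 had levels of 58.6, 62.8 and 72.5% in Low ×2.5 and of 85.7, 83.8 and 77.8% in Low ×5. The HDAC8 CpG at chrX:83187971 had levels of 76.5, 84.3 and 70.6% in Low ×2.5 and of 93.2, 90.9 and 90.6% in Low ×5. Groups did not overlap at either CpG, with differences of 17.8 and 14.4 points. A second CpG assigned to PAK1, at chr29:19432115, was demethylated, with levels of 82.3, 77.2 and 75.4% in Low ×2.5 and of 69.4, 59.0 and 68.0% in Low ×5. Over its 743 CpGs PAK1 had a level of 66.0% in Low ×2.5 and 66.2% in Low ×5, and over its 201 CpGs HDAC8 had 72.1% and 72.5%.

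The other methylated CpGs of the 10 with the smallest p-values were assigned to TFF3, a trefoil peptide of mucous epithelia, ST8SIA3, a sialyltransferase, PUDP, a phosphatase of pseudouridine phosphate, INTS10, a subunit of the Integrator complex, TWIST2, a basic helix-loop-helix transcription factor, TENM3, a teneurin of cell adhesion, and TSPY. Their differences were between 5.19 points at ST8SIA3 and 14.8 points at TSPY. At the INTS10 CpG (chr27:37641595) the difference was 1.02 on the log2 scale, and on its other strand it was 0.05 with an unadjusted p-value of 0.843 (limma).

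The demethylated CpG with the smallest p-value, at chr21:2535362, was assigned to UBE3A, a ubiquitin ligase. Its level was 95.8, 96.2 and 94.7% in Low ×2.5 and 91.1, 85.9 and 86.4% in Low ×5. The difference was -1.58 ± 0.34 (SE) on the log2 scale (limma). Low Control libraries, at 88.9, 89.7 and 81.0%, overlapped with Low ×5 and lay below Low ×2.5. It was also the CpG with the smallest p-value for the change of slope. This change was -1.78 ± 0.32 (SE) on the log2 scale per 1 time Control with an adjusted p-value of 0.741 (limma). The change of slope uses the same Low ×2.5 and Low ×5 values by which the CpG was chosen, so it is not a separate result.

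The widest difference among the demethylated CpGs named here was at chr8:56766156, assigned to TLE4, a Groucho corepressor that acts with Wnt pathway transcription factors. Its level was 78.1, 82.6 and 67.9% in Low ×2.5 and 51.6, 55.0 and 58.3% in Low ×5, a difference of -21.2 points with a 95% interval of -33.8 to -8.67. Low Control had a level of 55.2%, close to Low ×5. The 2 other CpGs within 50 bp had a mean level of 81.5% in Low ×2.5 and 72.1% in Low ×5, neither of them called and 1 with an unadjusted p-value under 0.05. Of the 688 CpGs assigned to TLE4, 4 were methylated and 1 was demethylated, where 0.437% of all assigned CpGs and 0.371% of all CpGs were called. Their mean level was 71.9% in Low ×2.5 and 72.2% in Low ×5.

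The 2 named CpGs assigned to NUDT12, a hydrolase of NADH, were both demethylated and lay on either side of the middle of the level range. The CpG at chr7:105890524 had levels of 32.3, 35.6 and 26.9% in Low ×2.5 and of 25.1, 18.2 and 18.8% in Low ×5. The CpG at chr7:105908817 had levels of 89.8, 86.7 and 88.6% in Low ×2.5 and of 80.6, 78.1 and 78.0% in Low ×5. At both, Low Control was close to Low ×5, with 20.3% and 77.03%. The other demethylated CpGs of the 10 were assigned to ALG6, a glucosyltransferase of N-glycosylation, CADM1, a cell adhesion molecule, C14H8orf33, ADAMTS3, a procollagen protease, and MYOM2, a protein of the sarcomere, with differences between -4.96 points at CADM1 and -14.5 points at C14H8orf33. Except at SFRP1, the adjusted p-value of the named CpGs was 1.00 after rounding (limma).

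Of the 20 named CpGs, 8 kept an unadjusted p-value under 0.01 by limma whichever of the 6 libraries was left out, namely those of SFRP1, TFF3, ST8SIA3, HDAC8, PUDP, UBE3A and ALG6 and the methylated CpG of PAK1. Without Low ×5 replicate 3 the call was lost at 7 of the 20, and without Low ×2.5 replicate 1 at 5. The 20 were chosen by p-values from these same libraries, so a kept call is no separate evidence of a difference.

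**Figure D4:**
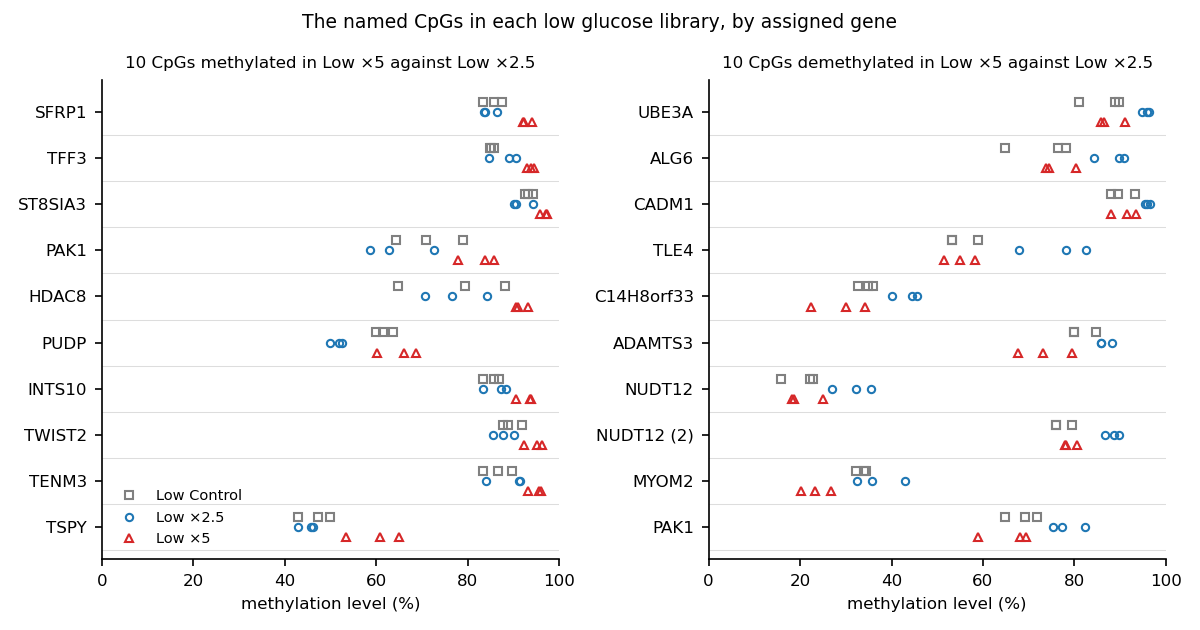
Methylation level (%) of the 10 methylated and 10 demethylated CpGs with the smallest p-values, 1 row per CpG labelled by its assigned gene, with squares for the 3 Low Control, circles for the 3 Low ×2.5 and triangles for the 3 Low ×5 libraries. Low ×2.5 and Low ×5 do not overlap in any row, as the choice by p-value brings about, and at TLE4 and the second NUDT12 CpG the Low Control libraries lie with or near Low ×5.

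Averaging neighbouring CpGs, which vary together, gave few further calls. Of 2663 clusters of at least 3 CpGs with gaps under 100 bp, 7 were called (0.263%), 6 methylated and 1 demethylated, none with an adjusted p-value under 0.05 by limma, and 51 had an unadjusted p-value under 0.05. The balance rested on single libraries and settings, with 0 methylated and 2 demethylated clusters without Low ×2.5 replicate 3, 2 and 0 without Low ×5 replicate 2, and 7 and 0 with quantile normalization. The methylated cluster with the smallest p-value, chr7:71927729-71927789, held 6 CpGs assigned to CLINT1, a partner of clathrin in vesicle transport, and all 6 were higher in Low ×5. Its levels were 76.4, 75.9 and 75.9% in Low ×2.5 and 81.9, 78.7 and 83.7% in Low ×5. The next 2 were assigned to TSPY (chr8:83252162-83252260) and to XCL1, a chemokine (chr16:36590595-36590678), with differences of 0.45 and 0.60 on the log2 scale. The demethylated cluster with the smallest p-value, chr6:27324882-27324933, had no assigned gene, and its levels of 71.5, 76.6 and 76.4% in Low ×2.5 and 71.8, 67.6 and 66.1% in Low ×5 overlapped. A cluster of 12 CpGs assigned to C14H8orf33, which held the CpG named above, and 1 of 9 CpGs assigned to LOC104974629 had the next smallest p-values, 0.0166 and 0.0188 (limma), and were not called. Each of the 4 called clusters described here lost its call without at least 1 of the 6 libraries.

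Of 268 genes with at least 3 assigned CpGs, TWIST2 was called (0.373% of the genes tested), and 3 genes had an unadjusted p-value under 0.05 by limma. Its 5 CpGs at chr3:119103451-119103482 had mean levels of 81.1, 83.4 and 84.0% in Low ×2.5 and 87.5, 90.0 and 88.2% in Low ×5, against 84.1% in Low Control. The groups did not overlap, all 5 CpGs were higher in Low ×5, and the difference was 0.84 ± 0.18 (SE) on the log2 scale with an adjusted p-value of 0.0704 (limma over 268 genes). The fit of the 6 libraries alone gave an adjusted p-value of 0.0127 for TWIST2 and 0.0137 for PYCR3, an enzyme of proline synthesis that was lower in Low ×5 by 0.38 on the log2 scale (limma). The 5 CpGs of PYCR3 lay close together, at chr14:2296996-2297006, and 0 of them were called. With all 18 libraries its unadjusted p-value was 0.0811 (limma). Its replicate SD was 0.279 points in Low ×2.5 and 0.427 in Low ×5, against 4.74 in Low Control.

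The 5 TWIST2 CpGs are not an independent sample, because the first and the last of them were assigned through the study's own list of CpGs that passed its threshold in this same comparison. Without the CpGs of the study's lists the difference of TWIST2 was 0.50 on the log2 scale with an unadjusted p-value of 0.0201, and 0 of 253 genes were called (limma), 3 having an unadjusted p-value under 0.05. The 5 CpGs belong to a cluster of 31 CpGs, chr3:119103425-119103613. Of the 26 others, 15 were higher in Low ×5 and 1 was called, against 0.371% of all CpGs. The whole cluster had a level of 81.9% in Low ×2.5 and 83.5% in Low ×5, a difference of 0.26 ± 0.17 (SE) on the log2 scale with an unadjusted p-value of 0.155 (limma). On the other strand of the first TWIST2 CpG, where the level was 90.8% in Low ×2.5 and 88.5% in Low ×5, the difference was -0.34.

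**Figure D5:**
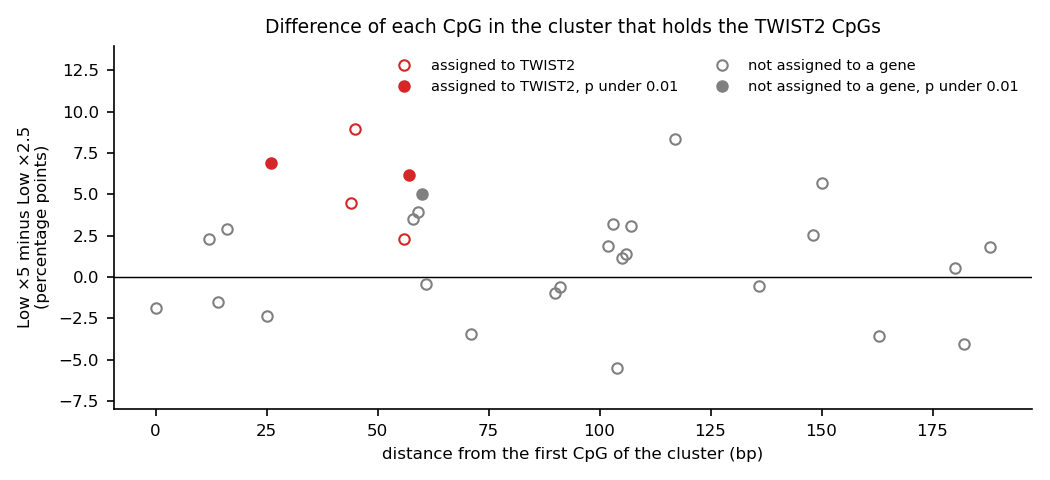
Difference between Low ×5 and Low ×2.5 (percentage points) at each of the 31 CpGs of the cluster that holds the TWIST2 CpGs, against the distance (bp) from its first CpG, with red for the 5 CpGs assigned to TWIST2, grey for the 26 others and filled points for an unadjusted p-value under 0.01. The red points lie above 0, and the grey points lie on both sides of it.

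The other genes chosen by p-value were not called. Those with the smallest p-values among the genes higher in Low ×5 had differences of 0.26 for HSD17B4, a peroxisomal enzyme of fatty acid oxidation, 0.17 for C6H4orf19, 0.26 for SPCS3, a signal peptidase subunit, and 0.32 for POMK, a kinase of the dystroglycan sugar chain, all on the log2 scale. Those lower in Low ×5 had differences of -0.48 for IPO5, an importin, -0.15 for SSR1, a translocon protein, -0.46 for CETN1, a centrin, -0.28 for POLR3K, a subunit of RNA polymerase III, and -0.38 for PYCR3. Their adjusted p-values were 0.998 (limma with Benjamini-Hochberg adjustment). Over all 268 genes the median difference was 0.01 on the log2 scale, and 164 genes were higher in Low ×5.

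Lists of related genes showed no further called gene. The study's process list for this comparison, chosen on these samples, has 19 genes with signalling roles, of which 18 had enough CpGs to be tested and 0 were called. The study drew this list from genes that held single differential cytosines, whereas the test here was of gene means. The differences of the 18 genes ran from -0.10 at RSU1 to 0.14 at RGS7 with a median of 0.02 on the log2 scale, close to the median over all genes. Of the 3029 CpGs of the list, 6 were called (0.198%, against 0.437% of all assigned CpGs). As CpGs were assigned through the study's lists from these same samples, the 0.437% here and below is not independent of the calls. Over all CpGs tested, 0.371% were called. Of the genes that the study discusses, ADCYAP1, a neuropeptide precursor, had a level of 70.3% in Low ×5 against 69.8% in Low ×2.5, MAP2K6, a kinase of the p38 pathway, had 68.7% against 68.3%, ARRDC3, an arrestin-like protein, had 76.5% against 76.4%, and IL2, a cytokine of T cells, had 76.6% against 76.5%. None of these was called as a gene, 1 of the 93 CpGs of ADCYAP1 was called and was methylated, and 0 of the CpGs of MAP2K6, ARRDC3 and IL2 were called. PDGFA, a growth factor, had 2 assigned CpGs, fewer than the 3 needed for a test as a gene.

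Of 13 mitochondrial proteins, 12 were tested and 0 called, with a median difference of 0.01 on the log2 scale, and 7 of their 1736 CpGs were called (0.403%, against 0.437% of all assigned CpGs). NDUFB7 and NDUFAF4, a subunit and an assembly factor of respiratory complex I, had levels of 72.6% in both treatments and of 70.4% and 70.6%. CPS1, which makes carbamoyl phosphate for the urea cycle, had 73.1% in Low ×2.5 and 73.0% in Low ×5. BCKDHB, a subunit of the branched-chain keto acid dehydrogenase, had 86.8% and 88.6%, a difference of 0.22 ± 0.20 (SE) on the log2 scale.

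Of 6 genes of the Wnt pathway and the Groucho family, 5 were tested and 0 called, with a median difference of 0.04, and 8 of their 1031 CpGs were called (0.776%, against 0.437% of all assigned CpGs). These 8 include the SFRP1 and TLE4 CpGs named above, and the list was chosen with earlier results known, so the share is a description. Of 10 chromatin and transcription regulators, all were tested and TWIST2 was called, the same gene as the 1 call among all 268, with a median difference of 0.03, and 7 of their 1022 CpGs were called (0.685%, against 0.437% of all assigned CpGs), the HDAC8 and TWIST2 CpGs named above among them. In the latter list TWIST1, related to TWIST2 and measured at 321 CpGs, had a level of 72.9% in Low ×2.5 and 73.1% in Low ×5, and UBN2, a histone chaperone subunit, had 35.7% and 33.6%. None of 21 genes of 1-carbon metabolism and DNA methylation, among them DNMT1 and MAT2A, had an assigned CpG, so these genes were not analysed here. Only genes named in the study's lists could be assigned a CpG. Whether CpGs near the 21 genes were measured is thus unknown.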

How the data were processed

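RRBS libraries of EBTr cells were compared between Low ×5 and Low ×2.5, 3 per treatment, with the groups and replicate numbers of the sample labels. The authors used Cutadapt for trimming and Bismark 0.22.3 for mapping to bosTau8 and for methylation calls, and they removed CpGs with fewer than 10 reads or extreme coverage. They deposited log2 values, 1 M-value per CpG and library, with an offset that is not given in the sources used here. The values hold no counts, so depth is unknown and no counting interval was computed, and the offset draws M-values towards 0 where reads are few.

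The level was computed as the share that the M-value implies. Differences were tested two-sided with limma 3.58.1 in R 4.3.3 on unscaled M-values, with a mean for each treatment and all 18 libraries in the fit, and with exact permutation tests on library means. The change of slope was the step from ×2.5 to ×5 divided by 2.5 minus the step from Control to ×2.5 divided by 1.5. The study's methods repeat another contrast where this one is expected, and its tables hold this one. Clusters were at least 3 CpGs with gaps under 100 bp, and regions were split at gaps over 10 kb. A CpG got the gene that the study's tables name for it or for the listed CpGs on both sides of it. Named CpGs were the 10 with the smallest p-values in each direction, and named clusters and genes the 3 and 5, with the gene lists in the text. The members and lists were chosen with earlier results of these data known. The pairing of strands, and the alternatives without Low Control libraries, without listed CpGs and for the step from Control to ×2.5, were added after seeing the data. Code was tested on simulated data. Python 3.11.15, numpy 2.4.6, pandas 2.3.3, scipy 1.17.1 and matplotlib 3.10.9 were used.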

Additional observations from a re-analysis of the deposited data

How the results depend on the processing

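Between Low ×5 and Low ×2.5, 0 CpGs passed an adjusted threshold of 0.05 (limma) under any setting that was run. The unknown depth limits every value. The mean difference of 0.0924 points ran from -0.180 (without Low ×5 replicate 1) to 0.290 when a library was left out, and was -0.00864 with each region counted once. The distance between minus within treatments ran from -0.0146 to 0.0143. Without 1 library, the class differences ran from -0.717 to 0.0147 points (under 10%), -0.772 to 0.0366 (10 to 30%), -0.308 to 0.113 (30 to 70%), -0.123 to 0.525 (70 to 90%) and -0.00546 to 0.455 (over 90%), and 4 of the 8 reversals came without Low ×2.5 replicate 1. Called CpGs numbered 84 to 157 without 1 library, 275 in the 6-library fit, 52 with a difference of at least 10 points and 0 at an adjusted p-value under 0.05. Calls for the change of slope numbered 251 to 674 and for the Low against High step 198 to 251 without 1 library. Clusters called numbered 2 to 9 without 1 library, with 2 left without Low ×2.5 replicate 3 or Low ×5 replicate 2 and 4 without Low ×5 replicate 1, and 19 in the 6-library fit. Genes called numbered 1 to 2 without 1 library, 7 in the 6-library fit, 0 of 229 with at least 10 CpGs and 0 without the listed CpGs. The cause of these changes was not tested, apart from the fewer genes or libraries that some settings hold. Over the 20 named CpGs, the call was kept 235 times and lost 22 times under the settings that were tallied per CpG. This tally leaves out the threshold of 10 points, the averaging of strands and the adjusted threshold, which no named CpG passed.

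Replicate numbers did not pair the samples, with correlations of deviations of -0.050, -0.00028 and -0.025 for equal and -0.017 to 0.038 for unequal numbers. With the replicate block the calls numbered 140 CpGs, 339 for the change of slope, 273 for the Low against High step, 6 clusters (all methylated) and 1 gene. With both strands of a CpG averaged, 102 CpGs were called.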
